A study of Mus musculus with 249 samples.

Results

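Over-detected autosomal windows were the 40 kb windows of chromosomes 1 to 19 that were called positive in the most libraries of the multiplexed genome architecture mapping (GAM) collection. A window was taken when its number of positive libraries was at or above the 99th percentile of the autosomal windows positive at least once, with ties kept. This threshold was 74 of 249 libraries (29.7%), and it gave 608 windows out of 59639 (1.02%), which were in turn part of 61816 autosomal windows and 68162 windows listed in all. The windows were thus chosen by their detection itself, and their counts of positive libraries are given as a description without a test. At the threshold, 103 windows were positive in exactly 74 libraries, and 148 windows just outside were positive in 73 (29.3%).

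GAM cuts nuclei into thin cryosections of 220 nm, isolates slices of nuclei (nuclear profiles) by laser microdissection, and amplifies and sequences the DNA in each tube. All libraries came from a single mouse embryonic stem cell line, 46C (strain 129/Ola), which was derived from E14tg2a and carries a GFP reporter in the Sox1 gene, and the sample titles give 4 profiles per tube, of which fewer hold a piece of the nucleus on average, since not every cut profile crosses it. Libraries that failed the authors' quality control were not in the table, and nothing states that they came from separate cultures, so p-values measure the spread between tubes. The libraries belonged to 11 experiments, and what differs between experiments beyond the protocol that the title names cannot be told apart from it. By title, these were reagent volume in protocols A, B and C (10, 11 and 10 libraries), proteinase K at 1 and 2 µl (5 and 6), freezing after the incubation (10 frozen, 11 unfrozen), early and late freezing (12 and 11), 20, 23 and 25 PCR cycles (4, 5 and 3), cresyl violet (16 stained, 10 unstained), and a small and a large amplification kit (12 and 11). The remaining libraries were unstained samples of the propidium iodide (20), eosin (18) and SYBR Gold (10) experiments and a full collection (54). The protocol text differs from the titles for the SYBR Gold staining and the proteinase K volumes, and the titles were used. A library was positive for 18.2% ± 7.69 (SD, n = 249) of the listed windows, with a range of 3.40 to 45.2%, a measure called coverage here. The table holds calls of 0 or 1 and no read counts, so the depth behind each call is unknown.

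A slice takes the stretches of each folded chromosome that lie within it, and loci close together in the nucleus, above all adjacent windows of the genome, tend to be positive in the same tubes. A call in a window can also come from reads of sequence that exists in many copies, since such reads may be placed at any copy that the assembly holds. In mouse, the centromeres consist of long tandem arrays, the major satellite beside the centromere and the minor satellite at it, and assemblies hold short pieces of them, while recently duplicated gene families form further clusters of near-identical copies.

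Of the 10 windows positive most often, 6 held words of the repeats described here, and the sequences are shown so that copies in different windows can be compared. The other 4, chr11:3040001-3080000, chr11:3080001-3120000, chr17:39960001-40000000 and chr15:74880001-74920000, held none of these words. Sequences were read from the mm9 assembly. The first window of chromosome 9, chr9:3000001-3040000, was positive in 247 libraries and repeated itself at a period of 234 bases, which is the unit length known for the major satellite. One unit of it on the + strand is shown with the most similar stretches of chr2:98480001-98520000, positive in 249 of 249 libraries, and chr9:35080001-35120000, positive in 245, both read from the - strand. Capitals mark bases that differ from the first line.
chr9:3027538-3027771: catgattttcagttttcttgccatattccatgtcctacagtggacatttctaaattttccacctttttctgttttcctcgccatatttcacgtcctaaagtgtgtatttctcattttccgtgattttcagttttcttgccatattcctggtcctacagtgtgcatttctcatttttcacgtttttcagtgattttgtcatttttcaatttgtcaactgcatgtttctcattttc
chr2:98507210-98507443: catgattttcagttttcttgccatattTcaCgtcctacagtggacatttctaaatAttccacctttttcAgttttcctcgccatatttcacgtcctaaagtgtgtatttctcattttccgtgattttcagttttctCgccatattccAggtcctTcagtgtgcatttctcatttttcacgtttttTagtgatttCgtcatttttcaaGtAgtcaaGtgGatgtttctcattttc
chr9:35112965-35113198: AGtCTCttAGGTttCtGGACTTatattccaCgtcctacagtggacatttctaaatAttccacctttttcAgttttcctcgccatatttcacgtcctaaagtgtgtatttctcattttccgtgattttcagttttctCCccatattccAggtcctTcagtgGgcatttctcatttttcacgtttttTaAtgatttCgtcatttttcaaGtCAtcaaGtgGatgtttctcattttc
The chromosome 2 copy differed from the unit at 13 positions (94.4% identity) and the other copy on chromosome 9 at 32 positions (86.3%), many of them at its 5′ end. Of the 16 autosomal windows that held at least 1 word of 24 bases of this unit, 7 were over-detected, and of the 9 that held 50 or more, 6 were. The 3 windows with 50 or more words that were not over-detected, chr12:75880001-75920000, chr13:77560001-77600000 and chr16:10960001-11000000, were positive in 62, 55 and 63 libraries. Windows with similar numbers of these words thus differed widely in detection. Among all windows whose commonest repeat period was 234 bases, 3 of 10 were over-detected, and these were the 3 windows shown above.

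The window chr6:103560001-103600000, positive in 242 libraries, lies in the gene Chl1, which encodes a neural cell adhesion molecule. Its commonest repeat period was 121 bases, close to the unit length known for the minor satellite. A stretch of 70 bases of its unit on the + strand is shown with the closest stretches in chr2:98480001-98520000 (+ strand) and in chr9:24320001-24360000 (- strand), the latter positive in 128 libraries. Capitals again mark differences from the first line.
chr6:103599035-103599104: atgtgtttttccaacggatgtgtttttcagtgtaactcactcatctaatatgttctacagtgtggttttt
chr2:98506415-98506484: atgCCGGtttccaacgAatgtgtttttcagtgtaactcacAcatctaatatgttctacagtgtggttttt
chr9:24346471-24346540: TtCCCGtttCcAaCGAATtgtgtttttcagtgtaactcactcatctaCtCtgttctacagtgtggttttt
The copy on chromosome 2 differed at 6 of the 70 positions (91.4% identity) and that on chromosome 9 at 14 (80%). At least 1 word of 24 bases of this unit was found in 5 autosomal windows, of which 3 were over-detected, the source window in Chl1 among them.

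Counts of positive libraries fell steeply above the threshold. Of the 608 windows, 391 (64.3%) were positive in 79 or fewer libraries, and the median was 77, compared with a median of 50 (20.1% of libraries) over all autosomal windows positive at least once. At the upper end, 78 windows were positive in 100 or more libraries, 21 in 150 or more and 10 in 200 or more.

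**Figure D1:**
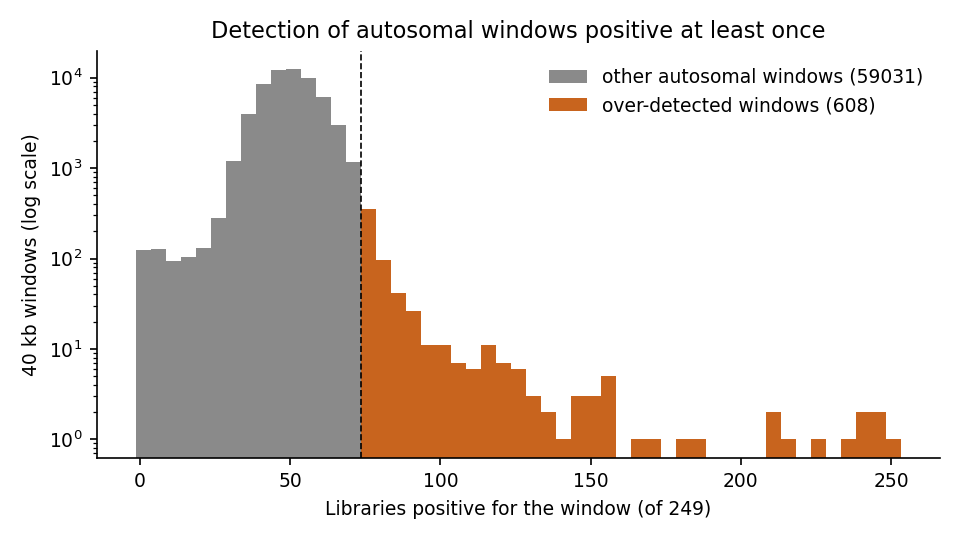
Number of autosomal 40 kb windows (vertical axis, log scale) by the number of libraries in which they were positive (horizontal axis, bins of 5 libraries). The dashed line is the threshold of 74 libraries, and the 608 windows above it (orange) thin out to 10 windows positive in 200 or more.

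Of the 10 windows positive most often, 3 lay side by side at the start of chromosome 11. The windows chr11:3000001-3040000, chr11:3040001-3080000 and chr11:3080001-3120000 were positive in 218, 242 and 235 libraries and overlap Sfi1, a gene for a centrin-binding protein of the centrosome, while the next window was positive in 66. The last of these also overlaps Drg1 and Eif4enif1. Of the other 7, none had an over-detected window beside it. The window on chromosome 2 that was positive in every library lies between windows positive in 47 and 38 libraries, that in Chl1 between windows positive in 33 and 51, and chr9:35080001-35120000, which overlaps Rpusd4, between windows positive in 62 and 52. The window chr17:39960001-40000000, with the non-coding gene AY036118, was positive in 224 libraries and its neighbours in 48 and 43. The window chr15:74880001-74920000, with no annotated gene, was positive in 212 and its neighbours in 44 and 48. The last of the 10, chr12:3080001-3120000, was positive in 211 and its neighbours in 35 and 55. Detection thus dropped to the usual level within 1 window on each side of these.

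Detection of these 10 windows extended over the experiments. For chr9:3000001-3040000, chr9:35080001-35120000 and chr6:103560001-103600000, the lowest experiment had 96.8%, 93.5% and 90.0% of its libraries positive. The windows of chromosomes 17 and 15 were lowest in the proteinase K experiment, with 8 of 11 (72.7%) and 6 of 11 (54.5%) libraries, and both were positive in 26 of 26 cresyl violet libraries. The window of chromosome 12 was positive in 21 of 31 reagent volume libraries (67.7%) and in all 11 of the proteinase K experiment. No experiment missed any of the 10 windows in most of its libraries, which their choice by the highest counts largely fixes.

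**Figure D2:**
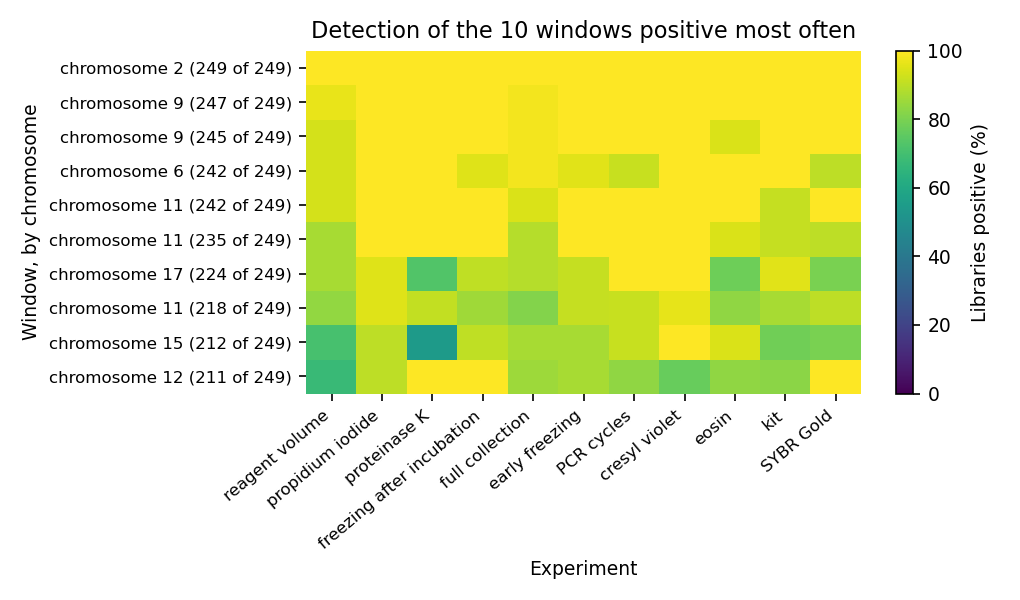
Percent of libraries positive (colour scale, 0 to 100%) for the 10 windows positive most often (rows, named by chromosome with their positive libraries) in each of the 11 experiments (columns). The lowest cell is 54.5%, the chromosome 15 window in the proteinase K experiment.

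Whether a window was positive together with the adjacent part of the chromosome was examined through its neighbours. Where adjacent windows both hold sequence in many copies, reads placed at any copy could make both positive. For such windows, co-detection with neighbours cannot tell whether the calls belong to that place. For each pair of adjacent windows, a Cochran-Mantel-Haenszel test stratified by quintiles of coverage asked whether both were positive in the same libraries, and a window was called linked when a pair had a Benjamini-Hochberg adjusted p under 0.05 and an odds ratio above 1. Of all autosomal windows tested, 99.9% were linked, and of the over-detected windows 598 of 602 tested (99.3%), so that nearly all of them were linked as other windows are. The median of the odds ratios was 22.7 for over-detected windows and 25.5 for all autosomal windows. The test needed at least 10 positive and 10 negative libraries, and 6 windows, all among the 10 positive most often, could not be tested because they or their neighbours left too few: chr2:98480001-98520000, chr9:3000001-3040000, chr9:35080001-35120000, chr6:103560001-103600000, chr11:3000001-3040000 and chr11:3040001-3080000.

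The 4 windows that were tested and not linked differed among themselves. For chr17:39960001-40000000, 27.2% of the positive libraries and 24.0% of the negative ones had a positive neighbour (odds ratio 1.54, adjusted p = 0.578). The window chr4:146320001-146360000, positive in 101 libraries, lies between windows positive in 14 and 2, so that only 8.91% of its positive calls had a positive neighbour (odds ratio 1.5, adjusted p = 0.485). The first window of chromosome 18, chr18:3000001-3040000, had an odds ratio of 2.07 (adjusted p = 0.0508), and it passed the threshold in 9 of the alternatives tried. The fourth, chr11:3080001-3120000, was adjacent to a window positive in 242 libraries, so 99.6% of its positive calls had a positive neighbour, and the odds ratio had no upper value (adjusted p = 0.0636). It passed the threshold in 3 alternatives. Of the windows in the top 10 that were linked, chr12:3080001-3120000 had an odds ratio of 5.35 (adjusted p = 4.00e-03), and chr15:74880001-74920000 one of 7.26 (adjusted p = 0.0348). Leaving out the full collection raised these adjusted p-values to 0.0881 and 0.0889, and both calls were lost. The call of the chromosome 15 window was also lost without the proteinase K, early freezing, PCR cycles or kit libraries, at adjusted p-values of 0.0595, 0.0583, 0.0643 and 0.0509.

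A linked window may still be positive without its neighbours in many libraries. The neighbour support of a window was therefore taken as the percent of its positive libraries in which at least 1 adjacent window was positive too. Its median was 85.5% for over-detected windows and 85.0% for all autosomal windows, and 478 over-detected windows (78.6%) reached 80% or more, compared with 81.2% of autosomal windows positive in at least 25 libraries. A limit of 60%, chosen after seeing the data, separated 45 over-detected windows (7.40%), compared with 195 of 59030 such autosomal windows (0.330%). Per library, the support of positive calls in over-detected windows was 3.91 percentage points lower than that in other windows (-3.91 ± 4.95, SD, n = 249 libraries), and it was lower in 209 of 249 libraries.

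**Figure D3:**
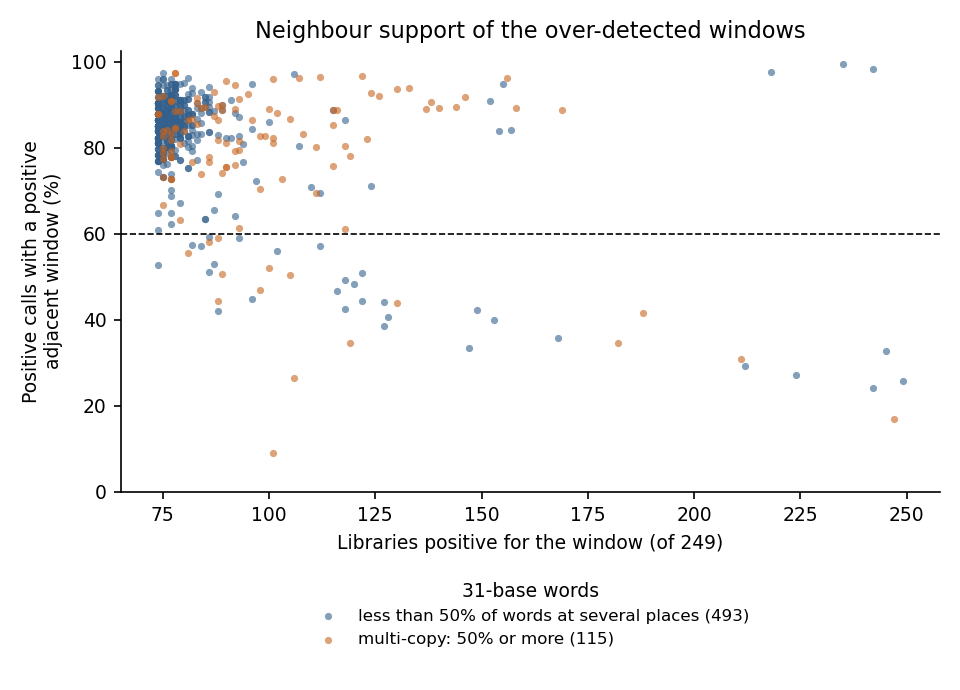
Neighbour support (vertical axis, percent of positive calls with a positive adjacent window) of each over-detected window against its number of positive libraries (horizontal axis), coloured by whether 50% or more of its sampled 31-base words occur at several places of the genome. The dashed line is the limit of 60%, with 45 windows below it and the 3 chromosome 11 windows at the upper right.

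The 45 windows of weak support were positive in 74 to 249 libraries with a median of 118. Their median support was 44.3%, while 12.9% of the libraries negative for them had a positive neighbour, and the first value was above the second in each of the 44 windows with a negative library. Both neighbours were below the threshold in 43 of them, and windows 2 to 6 positions away were positive in a median of 45 libraries. They were spread over 17 chromosomes. Linkage was called in 38, was tested and not called in 3, and could not be tested in 4. Of the 45, 16 (35.6%) were multi-copy, compared with 3.68% of autosomal windows, which means that at least 50% of the sampled words of 31 bases occur at more than 1 place of the genome. Their median percent of repeated words was 28.3%, compared with 9.89% over all autosomal windows, and 29 of the 45 were not multi-copy. The window chr19:45720001-45760000 in Fbxw4, a gene for an F-box protein, was positive in 147 libraries between neighbours at 46 and 38, with 9.25% of words repeated. The window chr3:109280001-109320000 in Vav3, which encodes a guanine nucleotide exchange factor, was positive in 118 between neighbours at 51 and 48, with 5.71% repeated. The window chr2:27320001-27360000, which overlaps Brd3, a reader of acetylated histones, was positive in 127 between neighbours at 55 and 55, with 17.1% repeated. These 3 windows in genes were picked after their values were seen and have a lower repeat content than the class.

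One window of weak support held a partial copy of the mitochondrial genome, which is 16299 bases long. The window chr1:24600001-24640000 was positive in 127 libraries, between neighbours at 46 and 44, and 4587 words of 24 bases were shared with the mitochondrial sequence. They lay within a stretch of 4650 bases, chr1:24618374-24623023, and the longest exact match ran over 3067 bases. Words of the mitochondrial genome occurred in 59 autosomal windows, of which this 1 was over-detected. The window with the next most, chr2:22440001-22480000, had 1867 words and was positive in 51 libraries.

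The remaining windows fell into 99 multi-copy windows and 464 others. This split and the following values describe windows chosen by their counts. The multi-copy windows of stronger support were positive in a median of 90.0 libraries with a median support of 85.5%, and the windows around them, 2 to 6 positions away, in a median of 52.5. The 464 others were positive in a median of 77.0 with a support of 86.2%, and the windows around them in a median of 65.0, which is above the autosomal median of 50. The lack of detected neighbours around windows of weak support, and a peak at the window itself in each class, follow from how the windows were chosen.

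**Figure D4:**
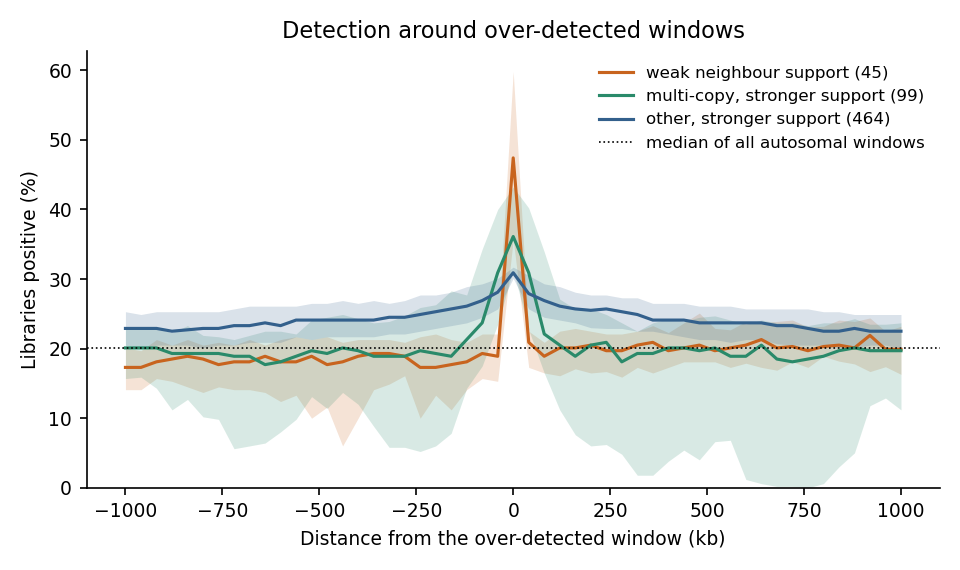
Percent of libraries positive (vertical axis) at windows up to 1000 kb on either side of over-detected windows (horizontal axis), as the median (line) and the range between the quartiles (shading) over each class. The median of the weak support class falls from 47.4% to 18.9% and 20.9% at the adjacent windows, and that of the 464 others from 30.9% to 28.1% and 27.9%.

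Over all over-detected windows, 115 (18.9%) were multi-copy, compared with 2192 autosomal windows (3.68%). Among those positive in 100 or more libraries, 43 of 78 (55.1%) were multi-copy, and among those below 100 libraries 72 of 530 (13.6%). Multi-copy windows were thus more frequent among windows of high count, while the median over all multi-copy autosomal windows was 42 positive libraries. The median percent of repeated words was 10.3% in over-detected windows and 9.89% in all, so that the typical over-detected window was not repetitive.

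Multi-copy windows were most numerous on chromosomes 4 (26 windows), 13 (15) and 8 (13). The window chr8:19920001-19960000, in a run of 5 over-detected windows, was positive in 169 libraries and had a period of 156 bases, which was the commonest period in 3 over-detected windows, all on chromosome 8, and in 12 autosomal windows. A period of 84 bases was the commonest in 23 over-detected windows (3.78%) and in 284 autosomal windows (0.476%). Most windows of this period were not over-detected: 8.10% of the 284 were, and their median was 50.0 positive libraries. This is the length of the unit of C2H2 zinc finger genes, in which each finger with its linker is encoded by a repeat of that size. Of the 23 windows, 13 lay on chromosome 4 and 18 were multi-copy, and they were positive in 75 to 158 libraries. All 23 were above the limit of weak support, with a median support of 83.8%. Their genes included Zfp600, positive in 86 libraries, Zfp808 in 75, Zfp640 in 99, and Prdm9, a histone methyltransferase that places recombination hotspots, in 75.

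The 84-base copies are shown for the window positive most often, chr4:146760001-146800000 (158 libraries, overlapping Gm13145), and for the Prdm9 window, chr17:15680001-15720000. In each set, read from the + strand, capitals mark differences from its first line.
chr4:146765229-146765312: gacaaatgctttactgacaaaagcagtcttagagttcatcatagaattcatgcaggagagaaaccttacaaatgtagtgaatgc
chr4:146765313-146765396: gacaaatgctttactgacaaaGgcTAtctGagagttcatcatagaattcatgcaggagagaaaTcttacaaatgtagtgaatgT
chr4:146765397-146765480: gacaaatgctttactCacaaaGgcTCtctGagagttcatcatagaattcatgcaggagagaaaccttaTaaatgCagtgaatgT
chr17:15681408-15681491: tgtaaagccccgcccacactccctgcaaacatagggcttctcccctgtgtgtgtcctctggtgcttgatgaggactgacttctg
chr17:15681576-15681659: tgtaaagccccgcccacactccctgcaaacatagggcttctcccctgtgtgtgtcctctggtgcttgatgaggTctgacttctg
Copies 2 and 3 on chromosome 4 differed from copy 1 at 6 and 8 positions (92.9% and 90.5% identity). Copy 3 in Prdm9 differed at 1 position (98.8%), and copy 2, which is not shown, was identical to copy 1. Although both sets have copies of high identity, 65.4% of the words of the chromosome 4 window occurred at several places, compared with 17.5% in the Prdm9 window.

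Over-detected windows clustered along the chromosomes. They formed 408 runs of adjacent windows, of which 110 had 2 or more, and 310 windows (51%) had an over-detected window beside them. The median distance to the nearest other was 40 kb, 407 (66.9%) lay within 200 kb of another, and 122 (20.1%) lay more than 1 Mb away. Neighbouring windows share the slices that hit them, so counts of adjacent windows are not independent. Chromosome 9 held 101 of the windows (3.34% of its windows positive at least once), chromosome 11 held 64 (2.15%), chromosome 17 held 42 (1.83%) and chromosome 4 held 68 (1.81%). The lowest shares were those of chromosomes 15 (7 windows, 0.279%) and 10 (9 windows, 0.284%). The windows of chromosomes 11, 9 and 17 were also detected more often as a whole, with medians of 56, 53 and 52 libraries. The median of chromosome 4 was 50, that of all autosomal windows positive at least once. Chromosome 13, with a median of 53 too, had a share of 0.926%. In the first 1 Mb with a positive call, 21 of 459 windows (4.58%) were over-detected, and in the last 1 Mb 9 of 474 (1.90%).

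The 2 longest runs had 11 and 8 windows, and 5 further runs had 6 windows each. The longest was chr17:30600001-31040000, positive in 77 to 96 libraries, with no multi-copy window. It overlaps Btbd9, Gm9874, Glo1, which detoxifies methylglyoxal, the axonemal dynein gene Dnahc8, and Glp1r, the receptor of glucagon-like peptide 1. The run chr4:144960001-145280000 had 8 windows positive in 89 to 157 libraries, of which 5 were multi-copy, and overlaps Gm13225, Gm13242 and Gm13212. The run chr4:146760001-147000000 had 6 windows positive in 101 to 158 libraries, of which 4 were multi-copy. The runs chr18:9800001-10040000 and chr9:72800001-73040000 had 6 windows each, positive in 75 to 93 and 76 to 91 libraries, with no multi-copy window. The first overlaps Colec12, Gm5501, Thoc1, a subunit of the complex that exports mRNA, and the deubiquitinase gene Usp14, and the second overlaps 8 coding genes, including Rab27a, a GTPase of secretory vesicles, and Pigb, an enzyme of GPI anchor synthesis. The other runs of 6 windows, named because they are as long, were chr8:71920001-72160000, positive in 77 to 90 libraries with 5 multi-copy windows, and chr11:97600001-97840000, positive in 75 to 81 with none. All windows of these 7 runs were linked with a neighbour.

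When windows less than about 1 Mb apart were joined, which was chosen after seeing the data, 6 stretches held 10 or more over-detected windows and 121 in all (19.9%). In chr9:69920001-73040000, 33 of 78 windows were over-detected, none of them multi-copy, and the median over the whole stretch was 71.0 libraries. In chr4:144960001-148000000, 29 of 76 windows were over-detected and 23 of these were multi-copy, with a median of 62.5. In chr11:95760001-98760000, 22 of 75 were over-detected, with a median of 69.0. A stretch of chromosome 3, chr3:95520001-96640000, held 11 of 28, including the window of the Hist2 histone cluster, chr3:96040001-96080000, positive in 78 libraries.

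The over-detected windows that were neither multi-copy nor of weak support lay in gene-rich sequence. Their median GC content was 44.4%, with 11.5 CpG dinucleotides per kb, and 410 of 464 (88.4%) overlapped a coding gene, with 1.42 genes per window on average. All autosomal windows positive at least once had a median GC content of 41.4%, 7.72 CpG per kb and 0.761 genes per window, and 55.5% overlapped a coding gene. The multi-copy windows of stronger support had a GC content of 40.9% and 6.67 CpG per kb, and 57.6% overlapped a coding gene, and the windows of weak support had 41.5%, 7.75 and 51.1%. Base composition thus differed between the classes, and its part in the counts was not tested.

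Among all 21418 autosomal coding genes, 653 (3.05%) overlapped an over-detected window, and longer genes span more windows. Of 14 pluripotency factors found in the annotation, 1 did, Nanog, a homeodomain factor of naive embryonic stem cells. Its window, chr6:122640001-122680000, which it shares with the glucose transporter gene Slc2a3, was positive in 82 libraries and its neighbours in 68 and 70. The highest windows of Pou5f1 and Sox2, the other core factors, were positive in 58 and 55 libraries, and that of Esrrb in 70. Among histone genes, 6 of 67 (8.96%) overlapped an over-detected window, and all 6 lay in the single Hist2 window. Of 138 genes named as ribosomal protein genes, 5 did (3.62%), of which Rps6kb1 encodes a kinase of ribosomal protein S6 and no ribosomal protein. Of 362 genes named Zfp, 14 did (3.87%), of 327 vomeronasal receptor genes 6 (1.83%), and of 1858 predicted genes 73 (3.93%). The 40 Hox genes and 1106 olfactory receptor genes had none. These shares are a description of lists of unequal gene length and clustering.

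Detection was then measured in libraries that the choice had not used. Each experiment was left out in turn, windows were chosen by the same percentile in the other 10 experiments, and their detection was read in the left-out libraries. The windows so chosen were positive in 30.2% ± 3.95 (SD, n = 11 experiments) of left-out libraries, and all other autosomal windows in 20.1% ± 3.27. The difference was 10.1 ± 1.30 percentage points, from 7.75 to 12, and it was above 0 in 11 of 11 experiments and in 247 of 249 libraries. In the libraries used for choosing, the same difference was 14.4 ± 0.336 points. The multi-copy windows chosen were 19.8 ± 3.19 points above all other windows in left-out libraries and 20.7 ± 0.391 in the libraries used, and the remaining windows 8.20 ± 1.31 and 13.2 ± 0.282 points. Of the 608 over-detected windows, 482 to 576 were chosen again with an experiment left out.

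Evenness over the experiments was tested for each window with a likelihood-ratio test of 1 intercept per experiment, with the logit of coverage as an offset. The test called 0 of 607 over-detected windows, and 0% of 59638 autosomal windows tested, at an adjusted p under 0.05. At an unadjusted p under 0.05, it gave 53 over-detected windows (8.73%), compared with 8.05% of all. A chi-square test of the counts per experiment, which has no offset, called 2 autosomal windows and 0 over-detected ones. At an unadjusted p under 0.05, it gave 69 over-detected windows (11.4%), compared with 8.94% of all. In the likelihood-ratio test, the lowest p in an over-detected window was that of chr5:66120001-66160000 (adjusted p = 0.209). It was positive in 28 of 54 libraries of the full collection (51.9%) and in 1 of 12 of the PCR cycles experiment (8.33%). The window chr10:128120001-128160000, which overlaps Cdk2, the cyclin-dependent kinase of S phase entry, and 3 other genes, ranged from 10.0% in SYBR Gold to 91.7% in PCR cycles (adjusted p = 0.298). The window chr19:34920001-34960000 ranged from 8.33% to 55.6% (adjusted p = 0.306), and chr1:85200001-85240000 from 0 of 21 libraries of freezing after the incubation to 17 of 23 of early freezing (73.9%; adjusted p = 0.338). The first window of chromosome 18 ranged from 38.7% in reagent volume to 88.9% in eosin (adjusted p = 0.370). None of these ranges passed the threshold once all windows were counted. The likelihood-ratio test was also run on simulated calls in which the odds of detection were changed in the full collection alone. It missed all windows at the smaller and most at the larger of the sizes tried, and other experiments were not simulated. The absence of calls therefore does not show that detection was even.

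Detection followed the coverage of the library in most autosomal windows, and in over-detected windows alike. A Mann-Whitney test found higher coverage in positive than in negative libraries, at an adjusted p under 0.05, for 89.7% of autosomal windows and for 570 of 603 over-detected windows (94.5%). The probability that a positive library had a higher coverage than a negative one was 0.647 in the median over-detected window and 0.648 in the median autosomal window. Over-detected windows have more positive libraries by choice, which helps this test to call them, so the shares called show no difference between the groups. Per library, 34.6% ± 12.2 (SD, n = 249) of the over-detected windows and 19.9% ± 8.43 of the other windows were positive, a difference that the choice of the windows by their counts in these libraries fixes.

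The 10 windows that were not linked or could not be tested were positive in 182 to 249 libraries, apart from chr4:146320001-146360000 with 101. A high count is part of why 6 of them could not be tested, so their levels are a description. They were positive in 77.8% of cases in the 50 libraries of lowest coverage and in 94.1% in the 49 of highest, while the linked windows that were not multi-copy went from 19% to 50.2% and windows not over-detected from 9.45% to 32.7%. Over the same libraries, all multi-copy over-detected windows went from 23.9% to 59.0%. In the 5 libraries with a coverage below 5%, 40 to 70% of the 10 windows not linked or not tested were positive. This compares with 5.97 to 13.0% of the linked ones that were not multi-copy and 3.31 to 4.56% of windows not over-detected. A window near 100% can move less in percentage points, so these ranges do not compare how strongly the classes follow coverage.

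Linkage over distance was described with the normalized linkage D′, the excess of co-detection over the product of the detection frequencies divided by its largest possible size, over windows positive in at least 25 libraries. At 40 kb, the median D′ was 0.669 (SD over windows 0.0920) for 606 over-detected windows and 0.627 (0.0632) for all autosomal windows. The means were 0.553 ± 0.104 and 0.481 ± 0.0712 at 200 kb, 0.382 ± 0.116 and 0.323 ± 0.0708 at 1 Mb, and 0.259 ± 0.121 and 0.188 ± 0.0687 at 4 Mb. D′ moves with detection frequency, which the choice of the windows fixes, so these differences are a description. Windows just below the threshold, positive in 65 to 73 libraries, had a median D′ of 0.657 at 40 kb. This comparison group was chosen after seeing the data.

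With coverage taken out as an offset, the correlation of the residual calls of windows 40 kb apart had a median of 0.580 in the 464 over-detected windows that were neither multi-copy nor of weak support, 0.579 in windows positive in 65 to 73 libraries and 0.551 in all autosomal windows. At 1 Mb, these medians were 0.241, 0.244 and 0.247. The multi-copy windows of stronger support had medians of 0.533 at 40 kb and 0.278 at 1 Mb. The windows of weak support had 0.282 at 40 kb, 0.209 at 200 kb, 0.136 at 1 Mb and 0.0780 at 4 Mb, and each of these medians was above 0. This class was cut by its low co-detection with adjacent windows, so its lower value at 40 kb follows from the choice and is no separate result. All values were taken over the same 249 libraries, and between windows on different chromosomes the mean correlation was -0.00366 for other autosomal windows and 0.0341 among 9 of the 10 windows that were not linked or not tested. The window positive in every library has no such correlation.

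**Figure D5:**
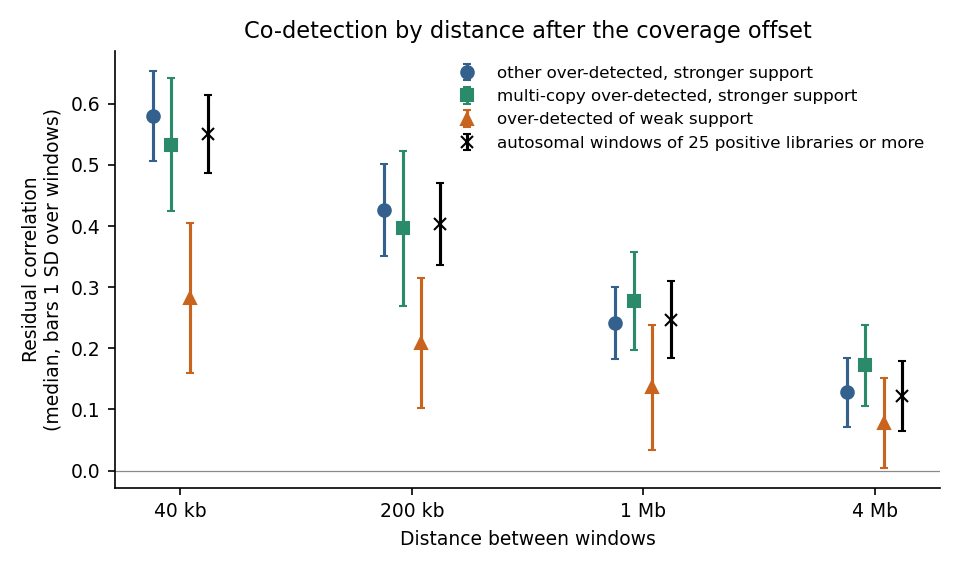
Median correlation of residual calls (vertical axis) between windows 40 kb, 200 kb, 1 Mb and 4 Mb apart (horizontal axis) for the classes of over-detected windows and for autosomal windows of 25 positive libraries or more, with bars of 1 SD over windows. The weak support class (triangles), with a median of 0.282 at 40 kb, was itself chosen by low co-detection with adjacent windows.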

How the data were processed

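The authors used Bowtie2 (version 2.1 in the submitters' processing notes) and mm9 for alignment, removed duplicates with Samtools and, with GAMtools, called a 40 kb window positive from 4 reads on in each library. Deposited were these calls, in a unit of its own (0 or 1, neither counts nor a signal), for the 249 libraries that passed their quality control. All columns were matched to samples by library name. Duplicate reads, reads placed at 1 of several copies and sequence that mm9 lacks can all change which windows pass a threshold of 4 reads, and mapping filters were not examined.

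From the calls, windows were ranked, and tests were run over all autosomal windows with at least 10 positive and 10 negative libraries (linkage and coverage). They were adjusted with the Benjamini-Hochberg method at 0.05, and D′ was computed for windows positive in at least 25 libraries. No pair of libraries held identical calls (0 pairs). Scripts used Python 3.11.15, NumPy 2.4.6 and SciPy 1.17.1 and were tested on simulated data. Words of 31 bases were sampled at 1 in 64 and counted on both strands of mm9, and genes came from the GENCODE annotation of that assembly, as coding and other genes. Periods were the commonest distance from 10 to 3000 bases between equal words of 12 bases. Windows were counted under a period when it recurred at 40 or more positions. The rule named the 10 windows positive most often, those not linked or not testable, the 5 longest runs, the 5 windows of lowest p for unevenness and the gene lists. The over-detected windows, lists and tests were chosen with earlier results of these data known. The repeat words, periods, weak support limit, profiles and the classes built from them were added after seeing the data. Alternatives were other percentiles, strata, offsets and word lengths, and leaving out libraries of low coverage or each experiment in turn.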

Additional observations from a re-analysis of the deposited data

Results flagged for a closer look

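One library was flagged as standing apart from its group. In protocol A of the reagent volume experiment, the support of positive calls in over-detected windows minus that in other windows was 14.9 percentage points in replicate 5. This library had the lowest coverage of all (3.40%), and the other libraries of the 10 had -3.48 to 5.58. The value was not unique. Replicate 2 of protocol B had 14.1, with the others of protocol B at -9.04 to 1.02, and replicate 17 of the full collection had 14.8. At a coverage of 3.56%, unfrozen replicate 3 of the experiment on freezing after the incubation had -14.9. Gaps of this kind were looked for in 18 combinations of group and measure, of which chance alone would give about 0.900.

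Outside chromosomes 1 to 19, 24 of 6346 windows (0.378%) were positive in 74 or more libraries. Of these, 15 lay on chromosome X and 8 on chromosome Y, and the mitochondrial genome, a single window here, was positive in 247 libraries. The highest window of chromosome X was positive in 241 libraries, and the highest of chromosome Y in 169.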

How the results depend on the processing

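The percentile set the number of windows and their mix. The 98th percentile gave 1437 windows and the top 0.5% gave 300, with 782 and 153 windows that had an over-detected neighbour and 9.12% and 31.3% multi-copy windows. The held-out difference was then 7.31 and 15.3 percentage points, it was 7.35 points without multi-copy windows and 200 kb around them, and it was 19.8 points for multi-copy windows alone and 8.20 points for the rest, a split chosen after seeing the data. Leaving out each experiment in turn gave 599 to 745 windows, 301 to 380 with an over-detected neighbour, 596 to 600 linked windows, 552 to 570 that followed coverage, 0 uneven over experiments, a support difference of -4.27 to -3.62 points and a D′ difference at 40 kb (medians) of 0.0381 to 0.0445, where the value over all libraries was 0.0417. Without the full collection, 482 of the 608 windows (79.3%) were chosen again among 745. For linkage over 1 Mb, the direction depended on the measure. Over-detected windows had a higher median D′ than all autosomal windows (0.367 and 0.321) and a lower median residual correlation (0.241 and 0.247). Of the other values, only odds ratios of windows not linked changed direction under the alternatives run. That of chr17:39960001-40000000 fell below 1, at 0.617 to 0.765, without the reagent volume, propidium iodide or proteinase K experiment. That of chr4:146320001-146360000 was 0.719 without freezing after the incubation. None of these passed the threshold. For the named windows, linkage kept its call in 147 combinations of window and setting, gained it in 13 and lost it in 8, where leaving out the full collection is entered under 2 settings. The losses were those of chr12:3080001-3120000 without the full collection and of chr15:74880001-74920000 without the full collection, proteinase K, early freezing, PCR cycles or kit libraries. The count of windows tested and not linked was 2 with experiments as strata, without strata, and without cresyl violet, and 3 to 6 under the other alternatives, where 4 were reported; the cause was not tested. No paired analysis was possible because the replicate numbers follow the order of deposition and pair no libraries. Depth is unknown from calls of 0 and 1, so a negative call cannot be told apart from too few reads, and no interval on depth is given.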
